A study of Bos taurus with 18 samples.

Results

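The comparison was between rumen papillae of cows given a supplement that the labels call only PHY and papillae of control cows, both on a high-grain diet. It was formed from the raw counts of every library labelled with the grain diet, which gave 9 of the 18 libraries of the study: 4 grain_PHY and 5 grain_control. All came from non-lactating, rumen-cannulated Holstein cows that had first eaten a baseline diet of 100% forage and then moved to a diet with 65% concentrate. The other 9 libraries (4 forage_PHY and 5 forage_control) came from the same 9 cows on forage, and the labels do not say whether PHY was already fed at that biopsy. They tie no library to a cow, so replicate numbers follow the order of deposit and each cow is taken as 1 library per diet. The labels give no dose, duration or composition for PHY.

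Rumen papillae are finger-like folds covered by a stratified squamous epithelium, with a dividing basal layer below and cornified cells at the lumen. This epithelium takes up the short-chain fatty acids made by rumen microbes, turns much of the butyrate into ketone bodies, exchanges protons and bicarbonate, and holds back microbes and their products through tight junctions. A grain-rich diet speeds fermentation and lowers rumen pH, which is known to stress this barrier and can bring on inflammation. The question of the comparison was whether papillae on such a diet differed in their RNA between supplemented and control cows.

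Genes typical of the labelled tissue were abundant. The basal keratin KRT5 averaged 3140 ± 1830 CPM (read counts scaled to effective library size) in grain_PHY and 2780 ± 909 CPM in grain_control (SD, n = 4 and 5). KRT14, its keratin partner, averaged 2630 ± 1590 CPM in grain_PHY and 2350 ± 1300 CPM in grain_control. Markers of other cell types had summed levels whose ranges overlapped between the groups. The sum over 17 tested T and NK cell markers ran from 40.1 to 70.5 CPM in grain_PHY and from 33.8 to 84.5 CPM in grain_control. The 18 myeloid markers summed to 79.9 to 128 CPM in grain_PHY and 64.5 to 117 CPM in grain_control. Endothelial markers summed to 205 to 311 CPM in grain_PHY and 220 to 416 CPM in grain_control. Fibroblast and pericyte markers summed to 272 to 501 CPM and 338 to 568 CPM. No marker of any of these lists was at 0 in all grain libraries. Genes that are silent in most tissues summed to 37.9 to 147 CPM in grain_PHY and 21.0 to 108 CPM in grain_control. Within a library, the myeloid sum was above that of the silent genes in every grain library but grain_PHY 1. It was 128 against 147 CPM there, and 68.7 against 21.0 CPM in grain_control 5. The T and NK sum was above that of the silent genes only in grain_PHY 4, grain_control 3 and grain_control 5. The lists differ in their number of genes, and the part of background reads in the immune cell sums was not tested. In such bulk samples, fewer cells of a type and less RNA per cell cannot be told apart.

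Depth differed widely between the libraries. Total reads averaged 10630000 ± 4880000 in grain_PHY and 15650000 ± 7720000 in grain_control, a ratio of 0.679 (two-sided exact permutation p = 0.27, the smallest possible being 0.0159). The lowest total was 3953060 reads, in grain_PHY 1, followed by 5433497 in grain_control 1 and 9944586 in grain_control 4. The highest was 23949058 reads, in grain_control 2. These 3 libraries also held the largest share of reads on 144 olfactory receptor genes, which papillae are not known to express, at 345.3, 168.6 and 125.4 CPM of total reads. Olfactory receptor reads were 1.44-fold as high in grain_PHY as in grain_control (two-sided exact permutation p = 0.508), and 0.941-fold as high without grain_PHY 1. The first principal component of the grain libraries held 48.6% of the variance and placed grain_PHY 1, grain_control 1 and grain_control 4 at one end and grain_control 5 and grain_PHY 4 at the other, so both groups spanned it. The second held 12.4% and set grain_PHY 2 apart, and the next held 10.4% and set grain_PHY 4 apart.

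**Figure D1:**
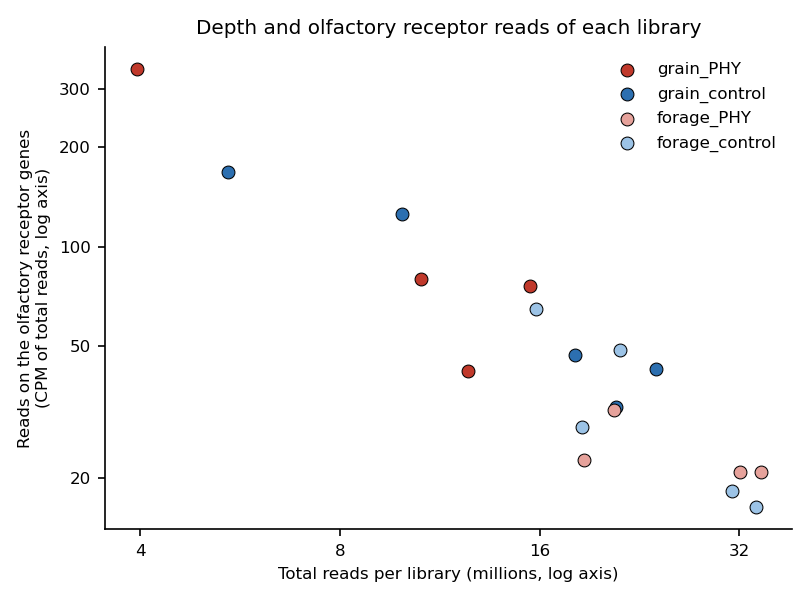
Total reads of each library (horizontal, log axis) against its reads on 144 olfactory receptor genes (vertical, CPM of total reads, log axis), 1 point per library and colour by group. The grain_PHY library at the upper left has 3953060 reads and 345.3 CPM, and grain_control libraries lie along the same slope.

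No gene passed the test between PHY and control on grain. With edgeR's quasi-likelihood test, 0 of 22202 genes (0%) had a Benjamini-Hochberg adjusted p under 0.05, and the smallest adjusted p was 0.999. At an unadjusted p under 0.05 there were 571 genes (2.57%), of which 178 were higher and 393 lower in grain_PHY. DESeq2 also called 0 genes, with 813 under 0.05 unadjusted and a smallest adjusted p of 0.642, and so did limma voom with library quality weights (1176 unadjusted, smallest adjusted p 0.407). The libraries of grain_PHY lay wholly above those of grain_control for 69 genes (0.311%) and wholly below for 90 genes (0.405%). The p-values rest on a spread per gene that all 18 libraries share, and libraries of the same cow on both diets were taken as independent. Over 11338 genes with at least 5 CPM in the higher grain group the median SD of log2 CPM was 0.444 in grain_PHY and 0.422 in grain_control, against 0.233 in forage_PHY and 0.394 in forage_control. The grain libraries alone gave 0 called genes as well, with 365 under 0.05 unadjusted.

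The 95% intervals give a range for the difference of each gene, before any adjustment for the number of genes. The median gene had a log2 difference, PHY minus control, of 0.01, and the middle 90% of genes lay between -0.62 and 1.0. For 9085 genes (40.9%) the 95% interval lay wholly within a 2-fold difference in either direction. This held for 86.4% of the 6800 genes with a mean of 10 to 100 CPM and for 68.9% of the 562 genes at 100 CPM or more. It held for 24.9% of the 11310 genes at 1 to 10 CPM and for 0 of the 3530 genes under 1 CPM. For most genes under 10 CPM the interval thus did not exclude a 2-fold difference. These unadjusted intervals do not say which differences the adjusted test could have called at any level. The biological coefficient of variation was 51.4%.

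The direction of the small differences went with the level of the gene. The median log2 difference was 0.22 under 1 CPM and 0.15 at 1 to 10 CPM, against -0.14 at 10 to 100 CPM and -0.20 at 100 CPM or more. Of the genes at 10 to 100 CPM with an unadjusted p under 0.05, 27 were higher and 216 lower in grain_PHY. With olfactory receptor reads as a covariate in the edgeR model the medians of these 4 classes were -0.12, -0.01, -0.01 and 0.00, and the genes at 10 to 100 CPM split into 164 higher and 149 lower. Without the 3 libraries of lowest total they were 0.49, 0.33, -0.13 and -0.19, so the gradient was present among the 6 deeper libraries too. In those 6 every grain_PHY library had fewer reads than every grain_control library. Totals were 10597387 to 15474334 reads in grain_PHY and 18096203 to 23949058 in grain_control. That fit therefore did not remove the difference in depth. With 1 surrogate variable in the model the order was reversed, with medians of -0.20, -0.05, 0.02 and 0.03. That fit had 133 genes higher and 99 lower at 10 to 100 CPM. Under 1 CPM it had 17 genes higher and 79 lower, and the covariate fit 24 and 74, against 23 and 19 in the main fit. The part of depth and of these reads in the gradient was not tested.

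**Figure D2:**
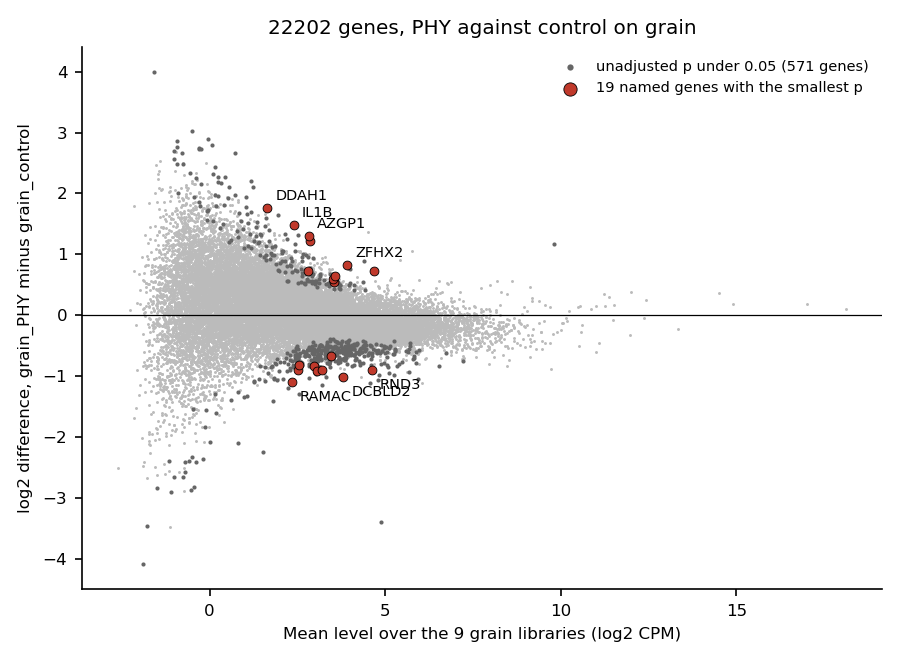
Each of 22202 genes by its mean level in the grain libraries (horizontal, log2 CPM) and its log2 difference, grain_PHY minus grain_control (vertical). Dark points are the 571 genes with an unadjusted p under 0.05, and red points are the 19 named genes with the smallest p in either direction; the cloud is wide at low levels and narrows above 10 CPM.

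Among genes with a symbol and at least 5 CPM in the higher group, the 10 with the smallest p on the higher side had log2 differences between 0.55 and 1.76. None of them passed the adjusted test, and each had an edgeR adjusted p of 0.999. They are described because a rule named them, and their p-values chose them.

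The smallest p of all belonged to AZGP1 (ENSBTAG00000026236), which encodes zinc-alpha-2-glycoprotein, a secreted protein of many epithelia that promotes lipid mobilisation in mice and humans. It stood at 8.23, 8.07, 13.5 and 12.5 CPM in the 4 grain_PHY libraries, against 6.53, 3.17, 4.18, 4.69 and 3.18 CPM in the 5 grain_control libraries. Every PHY library was above every control library. The log2 difference was 1.30, or 2.46-fold, with a 95% interval of 0.64 to 1.96 (edgeR adjusted p = 0.999). On forage AZGP1 stood at 6.87, 6.05, 13.9 and 9.14 CPM in PHY libraries, against 5.28, 2.15, 2.93, 6.21 and 4.10 CPM in control libraries. There the groups overlapped, the log2 difference was 1.11 (0.46 to 1.76; edgeR adjusted p = 1.0), and the difference between the diets was 0.19 (-0.74 to 1.12; edgeR adjusted p = 0.962). Since the same cows gave both diets, the forage values are not an independent repeat.

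IL1B (ENSBTAG00000001321), the inflammatory cytokine interleukin 1 beta, also had no overlap. Its levels were 6.39, 6.77, 6.13 and 13.3 CPM in grain_PHY, against 5.20, 0.905, 2.06, 3.23 and 3.32 CPM in grain_control. One PHY library, grain_PHY 4, was about double the other PHY libraries, and grain_control 1 came close to the lowest PHY value. This gave a log2 difference of 1.48 (0.49 to 2.48; edgeR adjusted p = 0.999). On forage it was 0.25 (-0.76 to 1.26), and the difference between the diets was 1.24 (-0.19 to 2.66; edgeR adjusted p = 0.954).

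ZFHX2 (ENSBTAG00000007053), a zinc finger homeobox transcription factor, stood at 28.1, 17.6, 19.0 and 14.6 CPM in grain_PHY, against 11.8, 8.80, 12.2, 14.3 and 8.88 CPM in grain_control. The groups did not overlap, but the lowest PHY and the highest control library were nearly equal. PHY minus control was 0.83 on the log2 scale (0.37 to 1.28; edgeR adjusted p = 0.999), against 0.05 (-0.40 to 0.50) on forage. RINL, a relative of the Ras and Rab interactors, had 20.1 CPM in grain_PHY 1 and 5.77 to 8.81 CPM in the other PHY libraries, against 4.11 to 6.17 CPM in grain_control. Its highest value thus came from the PHY library of lowest depth, and the groups overlapped. Likewise DDAH1, which breaks down an inhibitor of nitric oxide synthase, was highest in grain_PHY 1, with 10.4, 6.12, 2.70 and 1.28 CPM in grain_PHY against 0.363, 1.85, 2.01, 1.32 and 1.87 CPM in grain_control.

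The other 5 genes on this side were ARHGEF10L, UAP1L1, RAD51D, BLM and GRIK5. ARHGEF10L, a guanine nucleotide exchange factor, averaged 32.6 ± 7.37 CPM in grain_PHY and 19.7 ± 4.92 CPM in grain_control. The DNA repair genes had log2 differences of 0.73 (0.21 to 1.26) for RAD51D of homologous recombination and 0.61 (0.15 to 1.07) for the RecQ helicase BLM. UAP1L1, a relative of a sugar nucleotide enzyme, had the narrowest interval, 0.55 (0.17 to 0.92), and the glutamate receptor subunit GRIK5 was at 0.65 (0.15 to 1.14). UAP1L1 and BLM had every PHY library above every control library, which made 5 of the 10 genes without overlap, with AZGP1, IL1B and ZFHX2. Over all genes the share was 0.311%. The 10 genes were chosen by p-values from these same libraries, so their lack of overlap is not separate support.

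On the lower side the 9 genes of small p reported here lay between -1.10 and -0.67. Of them 8 had no overlap, against 0.405% of all genes. They too were chosen by p-values from these same libraries, so this count is not separate support. ERI3 (ENSBTAG00000015559), of the exoribonuclease family, had 4.87, 2.60, 6.55 and 8.35 CPM in grain_PHY, against 10.8, 11.9, 10.4, 8.72 and 10.9 CPM in grain_control. The control libraries were close to each other, and the PHY libraries were spread below them. The log2 difference was -0.91 (-1.41 to -0.41; edgeR adjusted p = 0.999). On forage all 9 libraries lay between 9.56 and 12.1 CPM, with a log2 difference of 0.16, and the difference between the diets was -1.07 (-1.75 to -0.38; edgeR adjusted p = 0.954).

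DCBLD2 (ENSBTAG00000014889), a membrane protein related to neuropilins, stood at 11.4, 10.4, 6.67 and 7.57 CPM in grain_PHY, against 14.0, 19.5, 18.6, 13.9 and 24.5 CPM in grain_control. RND3 (ENSBTAG00000039731), which regulates the actin cytoskeleton, stood at 11.7, 19.6, 18.7 and 16.4 CPM in grain_PHY, against 24.2, 31.5, 33.4, 22.6 and 42.6 CPM in grain_control. Both had every PHY library under every control library, with log2 differences of -1.02 (-1.58 to -0.45) and -0.89 (-1.39 to -0.40). Their forage values pointed the same way, at -0.53 (-1.07 to 0.02) for DCBLD2 and -0.58 (-1.07 to -0.09) for RND3, and neither was called there.

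The remaining genes of that side had diverse roles. RAMAC, which activates the mRNA cap methyltransferase, averaged 3.08 ± 1.44 CPM in grain_PHY and 6.64 ± 1.07 CPM in grain_control, with its lowest value in grain_PHY 1. TWSG1, a secreted regulator of bone morphogenetic proteins, averaged 6.20 ± 1.73 CPM in grain_PHY and 11.5 ± 2.91 CPM in grain_control, and its difference between the diets was -1.13 (-1.89 to -0.38; edgeR adjusted p = 0.954).

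KLF11, a Krüppel-like transcription factor, stood at 3.68, 4.08, 3.79 and 4.82 CPM in grain_PHY, against 8.82, 7.61, 6.99, 6.89 and 5.80 CPM in grain_control. UGCG, which makes glucosylceramide, the precursor of complex glycosphingolipids, averaged 3.83 ± 1.08 CPM in grain_PHY and 7.15 ± 1.64 CPM in grain_control, and was the gene of this side whose groups overlapped. The membrane protein PRRG1 and the RNA-binding protein MEX3D were at -0.83 (-1.34 to -0.31) and -0.67 (-1.10 to -0.24).

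**Figure D3:**
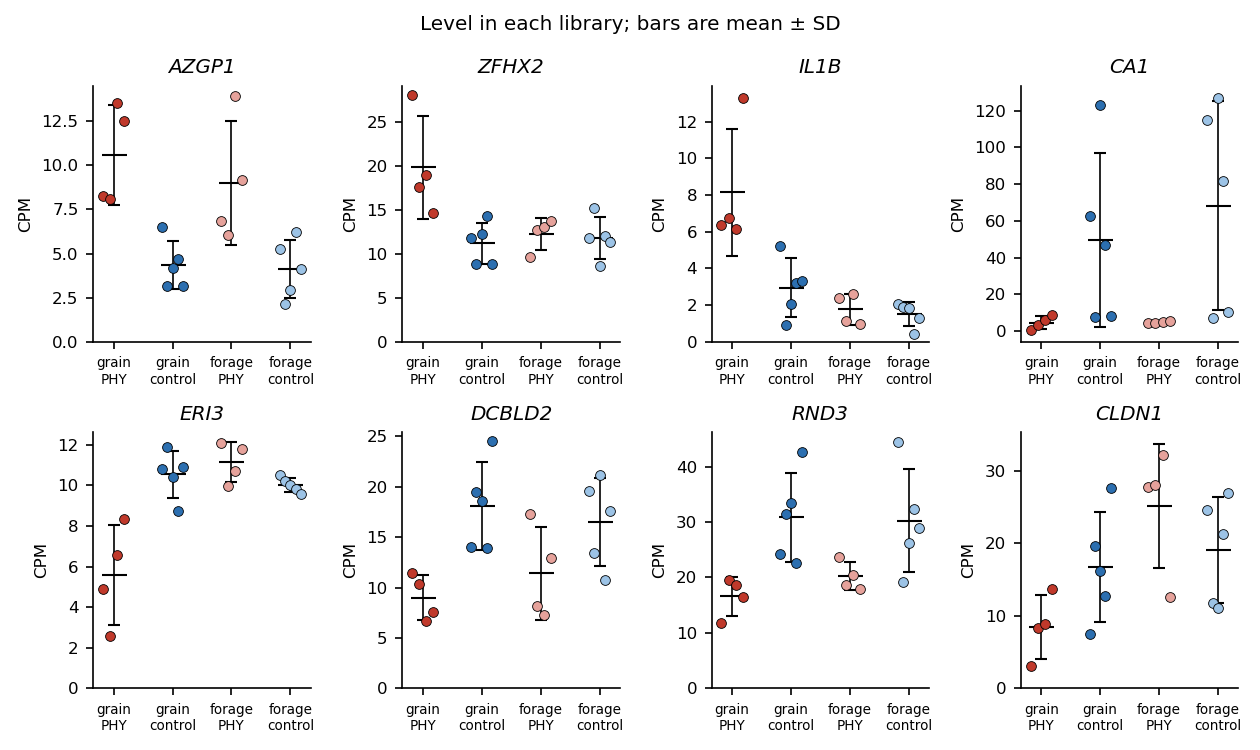
Level in each library (points, CPM) of AZGP1, ZFHX2, IL1B, CA1, ERI3, DCBLD2, RND3 and CLDN1 in grain_PHY, grain_control, forage_PHY and forage_control, with mean ± SD (bars). The grain_PHY and grain_control points do not overlap for AZGP1, ZFHX2, IL1B, ERI3, DCBLD2 and RND3, and overlap for CA1 and CLDN1.

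The effect of PHY was not shown to differ between the diets for any gene. On forage edgeR called 0 of 22202 genes (0%, smallest adjusted p 1.0), with 356 (1.60%) at an unadjusted p under 0.05. The test of the difference, grain minus forage, called 0 genes (0%, smallest adjusted p 0.954), with 442 (1.99%) at an unadjusted p under 0.05. Of the 19 genes above, 9 had an unadjusted p under 0.05 in that test, which uses the same grain libraries that chose them and does not pair the libraries of a cow. DESeq2 and limma voom also called 0 genes on forage (596 and 824 unadjusted) and for the difference (728 and 850 unadjusted).

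Lists of genes with known roles in this tissue were described next, without a test of the lists. Over 42 lists with 782 tested genes, 0 members passed, and 15 (1.92%) had an unadjusted p under 0.05, 4 higher and 11 lower in grain_PHY. All genes gave 2.57%, so the list members were not above the background. The medians of 17 lists lay above and those of 25 below the median of all genes. That reference was not matched for level, and by level it ran from 0.22 under 1 CPM to -0.20 at 100 CPM or more. The part of level in the list medians was not tested. List medians lay between -0.48 and 0.66, and single libraries moved or turned many of them, with examples given beside the lists described.

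Junction genes had mostly negative differences. Of 25 tight and adherens junction genes 0 passed, 20 were below 0, and the median log2 difference was -0.22 (-0.35 without grain_PHY 4). The median was 0.01 over all genes and -0.14 over all genes at 10 to 100 CPM. CLDN1 (ENSBTAG00000013148), the sealing claudin of stratified epithelia, stood at 3.03, 8.26, 8.90 and 13.7 CPM in grain_PHY, against 7.49, 19.6, 16.2, 12.7 and 27.6 CPM in grain_control. The groups overlapped, and the lowest value of each was in its library of fewest reads. The log2 difference was -0.99 (-1.80 to -0.18; edgeR adjusted p = 0.999), against 0.40 (-0.37 to 1.17) on forage. CLDN4, another claudin, had 10.5, 26.6, 24.7 and 28.4 CPM in grain_PHY against 24.2, 51.1, 27.4, 23.6 and 66.6 CPM in grain_control (-0.78, -1.48 to -0.07). OCLN, the tight junction protein occludin, was at -0.45 (-1.05 to 0.14). CDH1, the adherens junction cadherin, which the naming rule did not pick, was at -0.59 (-1.29 to 0.10). The 12 desmosome genes had a median of -0.29, with 9 below 0 and the desmocollin DSC3 at -0.50 (-1.14 to 0.15). That median was -0.02 without grain_control 5, -0.13 without grain_PHY 1 and -0.46 without grain_PHY 4.

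The layers of the epithelium showed no common direction. The median was -0.09 over 14 basal-layer genes, with the integrin ITGA6 at -0.46 (-1.06 to 0.15), KRT5 at 0.18 (-0.61 to 0.96) and KRT14 at 0.16 (-0.76 to 1.08). Over 28 genes of the upper layers the median was 0.09, with 15 above 0. Without grain_PHY 1 the basal median was 0.14, and without grain_PHY 4 that of the upper layers was -0.29. SPINK5, an inhibitor of the proteases that shed surface cells, was at -0.70 (-1.46 to 0.07). LYPD3, a surface protein of stratified epithelium, was at -0.35 (-1.05 to 0.35). KRT10, a keratin of suprabasal cells, averaged only 3.06 CPM in grain_PHY and 3.6 CPM in grain_control (-0.23, -0.99 to 0.54). Of 29 cell division genes 27 had an interval within a 2-fold difference, with a median of 0.05. MKI67, a proliferation marker, averaged 245 ± 97.2 CPM in grain_PHY and 227 ± 72.8 CPM in grain_control.

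Ketone body and lipid genes were near or slightly under the median gene. The 17 genes of ketone body formation and butyrate activation had a median of -0.16, and 12 of them had intervals within a 2-fold difference. Leaving out grain_PHY 1, grain_control 2 or grain_control 5 brought that median to -0.05, and leaving out grain_PHY 4 to -0.31. BDH1, which makes beta-hydroxybutyrate, was at -0.21 (-0.92 to 0.49). ACSS2, an acetyl-CoA synthetase, was at -0.32 (-0.80 to 0.15). The 24 cholesterol synthesis genes had a median of -0.25, with 20 below 0 (-0.15 without grain_control 2 and -0.41 without grain_control 1). SC5D, a late sterol desaturase, averaged 11.2 ± 2.14 CPM in grain_PHY and 17.4 ± 6.45 CPM in grain_control (-0.65, -1.24 to -0.06), and HMGCS1, the cytosolic synthase of that pathway, was at -0.41 (-1.23 to 0.40).

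Among 24 genes of fatty acid oxidation and the PPAR response (median -0.15, or -0.02 without grain_control 5 and -0.29 without grain_PHY 4), ANGPTL4 was on the other side. This secreted inhibitor of lipoprotein lipase, a target of PPAR nuclear receptors, had 4.01, 2.23, 4.51 and 8.06 CPM in grain_PHY, against 1.93, 2.43, 2.92, 1.91 and 2.57 CPM in grain_control. All but grain_PHY 2 were above the highest control value. ANGPTL4 had a log2 difference of 0.99 (0.26 to 1.71; edgeR adjusted p = 0.999), and without single libraries it ranged between 0.59 and 1.22. The fatty acid elongase ELOVL6 was at -0.48 (-1.02 to 0.06), within 17 fatty acid synthesis genes whose median was -0.11.

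The 2 genomes that encode the respiratory chain had medians on either side of 0, and both medians moved with single libraries. Of 36 nuclear-encoded subunits 35 were below 0 (median -0.19), such as NDUFA9 of complex I at -0.43 (-0.97 to 0.10), whereas all 13 mitochondrially encoded transcripts were above 0 (median 0.23). ND5, the complex I subunit with the smallest p of these, had 1540, 4610, 5380 and 7240 CPM in grain_PHY, against 2540, 3540, 4220, 3080 and 4670 CPM in grain_control. The PHY libraries held both the lowest and the highest value. The nuclear median was 0.02 without grain_control 5 and -0.03 without grain_PHY 1. The mitochondrial median was 0.02 without grain_PHY 4, 0.09 without grain_control 1 and 0.45 without grain_PHY 1. With the olfactory receptor covariate the medians were 0.02 for the nuclear and 0.26 for the mitochondrial genes. The 19 glycolysis genes had a median of -0.07, with the glucose transporter SLC2A1 at -0.35 (-0.79 to 0.09).

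CA1 (ENSBTAG00000032236), a cytosolic carbonic anhydrase that interconverts carbon dioxide and bicarbonate, had the largest difference of the genes chosen for their roles. That choice was made with earlier results of these data known. CA1 stood at 0.542, 3.15, 6.31 and 8.55 CPM in grain_PHY, against 62.5, 7.69, 123, 46.8 and 8.09 CPM in grain_control. The control libraries fell into 3 high and 2 low values, and the low ones lay within the range of PHY libraries. CA1 had a log2 difference of -3.39 (-5.60 to -1.19; edgeR adjusted p = 0.999). On forage CA1 was at 4.18, 4.52, 5.26 and 5.48 CPM in PHY libraries, against 115, 6.93, 127, 81.4 and 10.4 CPM in control libraries, again with 3 high control values (log2 difference -3.81, -6.02 to -1.60; edgeR adjusted p = 1.0). The difference between the diets was 0.42 (-2.37 to 3.21). The labels do not say which libraries came from the same cows. CA12, a membrane-bound carbonic anhydrase, was at -0.34 (-1.03 to 0.35), and the 9 carbonic anhydrases had a median of -0.31 (-0.13 without grain_PHY 2, -0.16 without grain_control 5 and -0.17 without grain_PHY 4).

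Of the transporters named here, all but SLC26A2 had an interval that included 0. SLC16A1, the monocarboxylate transporter MCT1, averaged 599 ± 175 CPM in grain_PHY and 798 ± 230 CPM in grain_control (-0.41, -1.02 to 0.20). Over the list of 12 short-chain fatty acid transporters and receptors the median was -0.09. That list also held the hydroxycarboxylic acid receptor HCAR1, at -1.83 (-3.76 to 0.09), from levels of at most 2.78 CPM. SLC26A2, a sulfate transporter, had 11.6, 27.4, 55.7 and 60.1 CPM in grain_PHY, against 58.1, 96.3, 81.1, 47.5 and 115 CPM in grain_control. Its groups overlapped, with grain_PHY 1 and 2 under all control libraries (-1.04, -1.90 to -0.18; edgeR adjusted p = 0.999). The 23 acid, bicarbonate and ion exchangers had a median of -0.01, with the sodium-proton exchanger SLC9A3 at -0.16 (-1.27 to 0.95) and the chloride-bicarbonate exchanger SLC26A3 at -0.43 (-1.62 to 0.76). SLC14A1, the urea transporter, was at -0.12 (-0.78 to 0.54), the water channel AQP1 at -0.73 (-1.54 to 0.08), the potassium channel KCNJ5 at 0.87 (-0.44 to 2.19) and the magnesium transporter MAGT1 at -0.49 (-1.0 to 0.02).

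**Figure D4:**
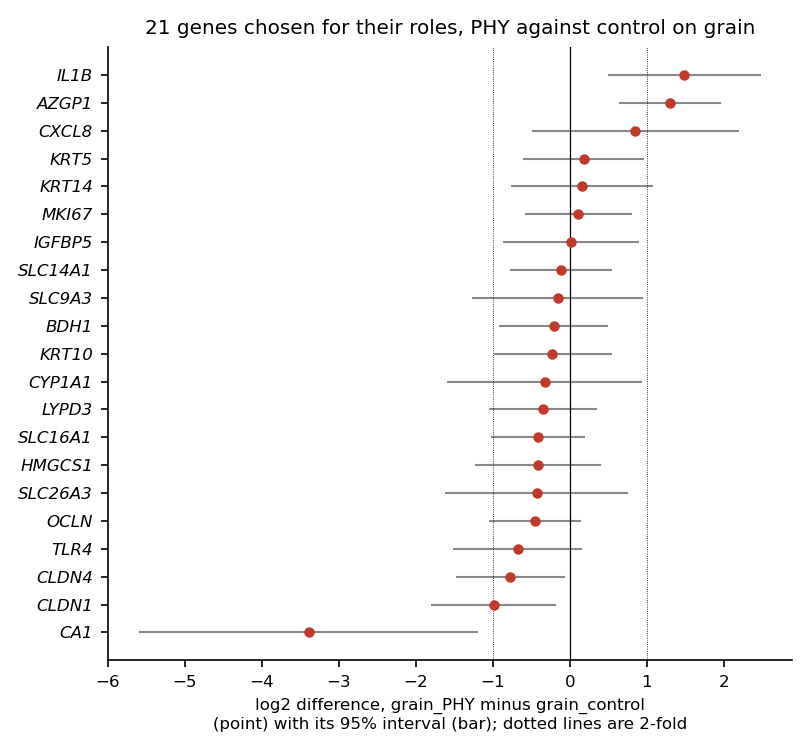
Log2 difference, grain_PHY minus grain_control, of 21 genes chosen for their roles in this tissue (points) with 95% intervals (bars). Dotted lines mark a 2-fold difference. The genes were chosen with earlier results of these data known. The intervals of IL1B and AZGP1 lie above 0 and those of CLDN4, CLDN1 and CA1 below 0, and 6 of the 21 intervals lie within the dotted lines.

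Many defence genes had positive differences, with wide intervals. Of 22 antimicrobial and mucosal defence genes 18 were above 0 with a median of 0.59, against 0.42 over 25 genes that are silent in most tissues. Without grain_PHY 1, the library of fewest reads, the medians were 0.19 and -0.22. With the olfactory receptor covariate they were 0.27 and -0.05. The summed level of the defence list did not go the same way. It ran from 1300 to 2990 CPM in grain_PHY (median 2240) and from 1500 to 4640 CPM in grain_control (median 3010). DEFB1, a beta-defensin named after its values were seen, had 2.82, 1.86, 0.842 and 2.75 CPM in grain_PHY, against 0.967, 0.494, 0.229, 0.586 and 0.0467 CPM in grain_control. Only grain_PHY 3 was under the highest control library (log2 difference 2.18, 0.53 to 3.84; edgeR adjusted p = 0.999). PI3, a protease inhibitor of skin and mucosa also given outside the naming rule, ran from 6.93 to 78.4 CPM in grain_PHY and from 2.30 to 28.4 CPM in grain_control (1.37, -0.11 to 2.85). In contrast S100A12, a calcium-binding alarmin, was at -0.45 (-1.26 to 0.36).

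The 35 inflammation genes had a median of 0.08, with 18 above and 17 below 0. Beside IL1B, the neutrophil chemokine CXCL8 was at 0.85 (-0.49 to 2.2), with its highest value, 4.91 CPM, in grain_PHY 4, as for IL1B. TLR4, the receptor for bacterial lipopolysaccharide, was at -0.68 (-1.52 to 0.16). The 25 interferon response genes had a median of 0.00, and the transcription factor IRF1 was at 0.49 (-0.01 to 0.99). Of 15 antigen presentation genes the class II gene BOLA-DQB was at -2.10 (-4.03 to -0.17). It rested on 1 library, with 9.95 CPM in grain_control 5 and 0.325 to 1.61 CPM in the other 8, and without grain_control 5 the log2 difference was -0.40. Near-identical class II genes could share its reads. CTSS, cathepsin S of the class II pathway, also named after its values were seen, averaged 5.85 ± 3.16 CPM in grain_PHY and 10.3 ± 3.25 CPM in grain_control (-0.82, -1.58 to -0.06).

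Responses to foreign compounds and stress were as follows. CYP1A1, the oxidase induced through the aryl hydrocarbon receptor, averaged 10.7 ± 4.88 CPM in grain_PHY and 13.4 ± 6.80 CPM in grain_control (-0.33, -1.59 to 0.93), and TIPARP, another target of that receptor, was at -0.59 (-1.23 to 0.05). The median was -0.07 over 11 such targets and 0.12 over 29 xenobiotic enzymes and exporters. The flavin monooxygenase FMO5 was at -0.97 (-1.87 to -0.08), with 89.5 CPM in grain_control 2 and 11.4 to 32.1 CPM in the other grain libraries. The 29 antioxidant genes had a median of -0.18 (0.03 without grain_control 5 and -0.02 without grain_PHY 1), with GCLC of glutathione synthesis at -0.67 (-1.34 to 0.01). Of 21 unfolded protein and heat shock genes 20 were below 0 (median -0.28), and DNAJB9, a chaperone of the endoplasmic reticulum, was at -0.88 (-1.66 to -0.09). Of 19 immediate early genes 16 were below 0 (median -0.34), with the transcription factor JUN at -0.71 (-1.53 to 0.11). Without grain_control 5 the median of the immediate early genes was 0.02, JUN was at -0.16, and the unfolded protein and heat shock genes had a median of -0.10. Without grain_PHY 1 that last median was -0.13.

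Growth, clock and stromal genes had medians on both sides of 0. IGFBP5, an insulin-like growth factor binding protein, averaged 312 ± 156 CPM in grain_PHY and 309 ± 163 CPM in grain_control. The 22 genes of the IGF and EGF axis had a median of -0.03, with the growth factor TGFA at 0.71 (-0.22 to 1.65), and the 17 clock genes one of -0.11, with the transcription factor HLF at -0.61 (-1.17 to -0.06). The 21 matrix genes had a median of 0.21 (0.11 without grain_PHY 2 and 0.37 without grain_PHY 1), with elastin, ELN, at 0.61 (-0.40 to 1.63). Marker lists gave medians between -0.19 for endothelium and 0.66 for columnar and secretory epithelium. These were -0.05 for endothelium without grain_control 5 and 0.26 for columnar and secretory epithelium without grain_PHY 1. Over all marker lists 1 marker had an unadjusted edgeR p under 0.05, which was not above the share over all genes, 2.57%. That marker was RGS5 of pericytes, with 12, 33.4, 28.5 and 17.6 CPM in grain_PHY against 17.4, 66.8, 58.6, 32.1 and 44.7 CPM in grain_control (-0.94, -1.76 to -0.12).

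Of the genes used as signs of RNA quality, ribosomal protein and reference genes had negative medians, and the genes silent in most tissues the positive one given above. All 30 cytosolic ribosomal protein genes were below 0, with a median of -0.48, the lowest of the 42 lists, and RPS3 at -0.69 (-1.39 to 0.02). The 15 reference genes had a median of -0.16, with 12 below 0 and RPLP0 at -0.69 (-1.43 to 0.05). Without grain_control 5 these medians were -0.17 and -0.02, and without grain_PHY 1 they were -0.34 and -0.01. With the olfactory receptor covariate the medians were -0.15 for ribosomal proteins, 0.06 for reference genes, -0.08 for junctions, -0.02 for desmosomes, -0.04 for unfolded protein and heat shock, -0.10 for cholesterol synthesis and -0.28 for immediate early genes. Without the 3 libraries of lowest total they were -0.56, -0.19, -0.29, -0.30, -0.31, -0.32 and -0.67 in the same order. In that fit every grain_PHY library had fewer reads than every grain_control library. The part of RNA quality and depth in the medians of these lists was not tested.

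**Figure D5:**
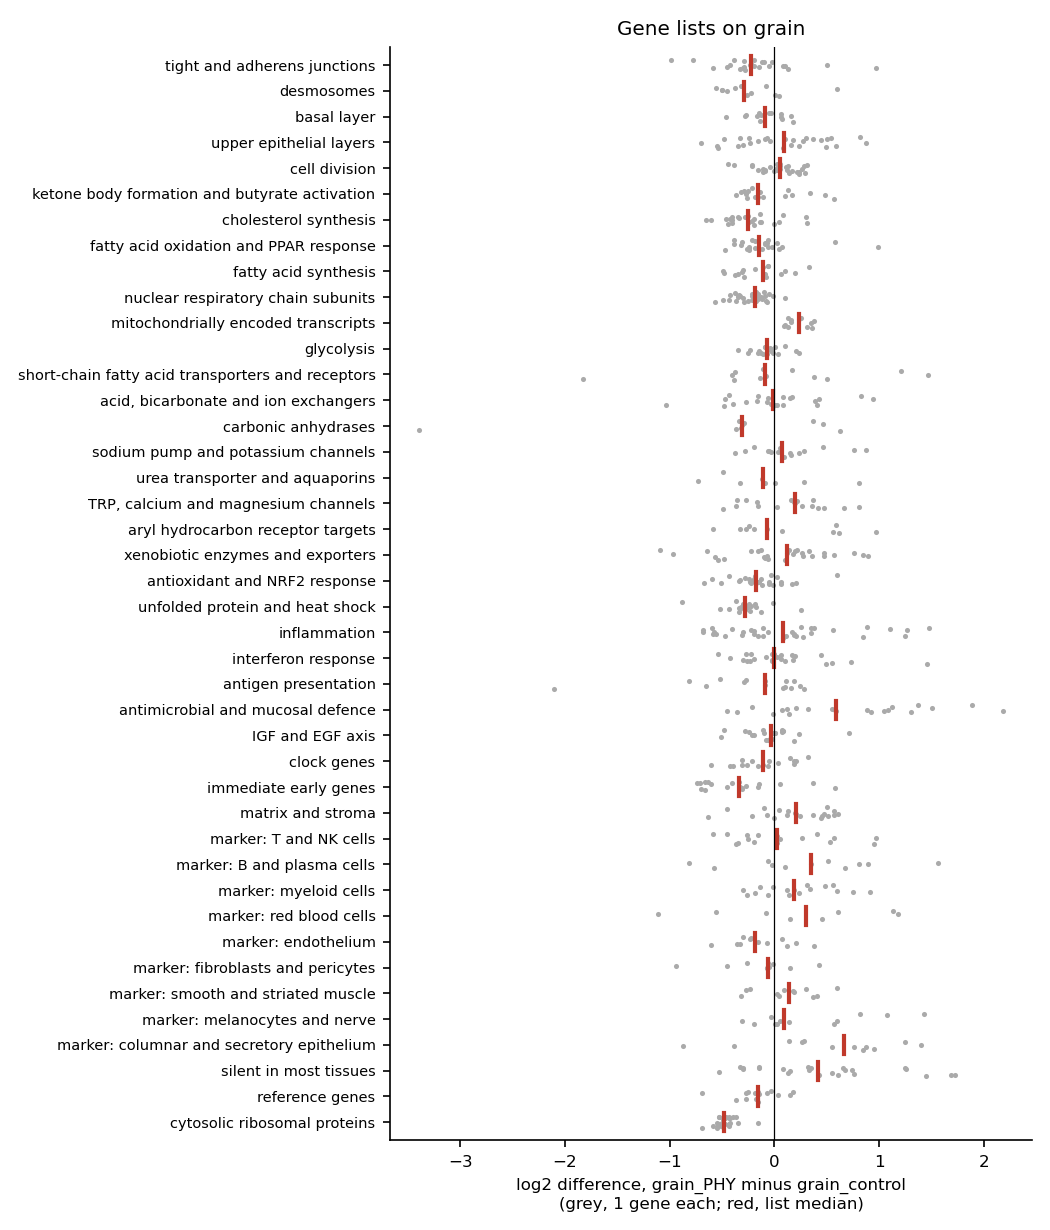
Log2 difference, grain_PHY minus grain_control (horizontal), of the tested members of 42 gene lists (grey points, 1 per gene) with the list median (red bar). Medians lie between -0.48 for cytosolic ribosomal proteins and 0.66 for columnar and secretory epithelium markers, and members of most lists lie on both sides of 0.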

How the data were processed

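Total RNA of rumen papillae was extracted with a NucleoSpin miRNA kit and libraries were made from 10 ng with a SMART-Seq Stranded kit, per the labels' protocols. The deposited table holds the authors' whole-number read counts for 27270 Ensembl genes, of which 7506 are named only by identifier. A deposited table of DESeq2-normalized signal (size-factor scaled counts) was checked against the counts and not tested. Demultiplexing by bcl2fastq 2.20, DESeq2 (version not stated) and the build bosTau9 are per the submitters' processing notes; the strand setting and the aligner, counter and annotation were not given in the sources used here, so overlapping or antisense genes could share reads. Symbols were taken from that table.

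Groups come from the diet and treatment labels. Counts were tested with edgeR 4.0.16 (R 4.3.3; filterByExpr, TMM, robust quasi-likelihood F test, 1 mean per group over all 18 libraries), two-sided, with Benjamini-Hochberg adjustment over 22202 genes and a threshold of 0.05. All 18 libraries share one estimate of the spread. Intervals are 95% intervals of the log2 difference. The script was tested on simulated data. Named genes were the 10 largest called differences per direction or, where fewer were called, the smallest p among genes that carry a symbol and average 5 CPM or more in one group; the smallest p of each of 42 lists; and 21 genes chosen for their roles. Some genes that the rule names are left out of the text, and CDH1, CA12, PI3, S100A12, DEFB1 and CTSS are given outside the rule. Members, lists and tests were chosen with earlier results of these data known. The alternatives used DESeq2 1.42.0, limma 3.58.1 (voom) and sva 3.50.0, other filters and normalization, an olfactory receptor covariate, thinned counts, grain libraries alone, and leaving out libraries.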

Additional observations from a re-analysis of the deposited data

Results flagged for a closer look

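Within grain_PHY or grain_control, 11 of 156 sets of values (7.05%) had 1 library whose gap to the nearest other was over Dixon's 95% limit. The sets were the 76 named genes and the olfactory receptor reads, on the log2 scale, and the total reads, each within both groups, and chance flags about 1 in 20. In grain_PHY, library 1, with the fewest reads, was the lowest for RAMAC at 0.975 CPM (others 3.53 to 4.27), NDUFA9 at 22.9 CPM (others 39.9 to 44.6), CLDN4 at 10.5 CPM (others 24.7 to 28.4) and CYP1A1 at 3.36 CPM (others 12.7 to 13.6). Library 4 of that group was the highest for IL1B at 13.3 CPM (others 6.13 to 6.77) and the lowest for SC5D at 7.96 CPM (others 12 to 12.6). Library 2 was the highest for GCLC at 35 CPM (others 16.8 to 18.1). In grain_control, library 1, with the fewest reads of that group, was the highest for RINL at 6.17 CPM (others 4.11 to 4.30) and the lowest for DDAH1 at 0.363 CPM (others 1.32 to 2.01). Library 5 was the lowest for BLM at 7.06 CPM (others 9.17 to 10.2) and the highest for SLC14A1 at 261 CPM (others 133 to 153).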

How the results depend on the processing

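Under each of 19 alternatives, and with a minimum absolute log2 difference of 1, 0 genes were called on grain. The count at an unadjusted p under 0.05, which was 571, ranged from 289 to 1294 when 1 grain library was left out; the highest count came without grain_control 1 and the lowest without grain_control 5, and leaving out grain_control 2 gave 341. It was 365 with the grain libraries alone and 1157 without the 3 libraries of lowest total (smallest edgeR adjusted p 0.817), with fewer libraries in both. The counts of genes without overlap were 75 higher and 105 lower of 22202 genes with DESeq2's size factors. With thinned counts they were 54 higher and 107 lower of only 15538 genes. Of 1439 pairs of a named gene and an alternative, 1411 kept the sign, and 28 over 12 genes did not; the causes were not tested. With voom the log2 difference was 0.01 for MCM6, 0.17 for KRT10, 0.26 for BDH1, 0.06 for SLC9A3, 0.28 for SLC26A3, 0.17 for SLC14A1 and 0.21 for CYP1A1. With the olfactory receptor covariate it was 0.16 for SLC9A3 and 0.05 for SLC14A1. With 1 surrogate variable it was 0.00 for BDH1, 0.18 for SLC9A3, 0.07 for SLC14A1 and 0.03 for LYPD3. Leaving out single libraries gave ranges that crossed 0 for KRT5 (-0.22 to 0.46), KRT14 (-0.28 to 0.54), BDH1 (-0.40 to 0.07), SLC9A3 (-0.34 to 0.04), SLC26A3 (-0.65 to 0.10), SLC14A1 (-0.26 to 0.10), IGFBP5 (-0.22 to 0.33) and MKI67 (-0.07 to 0.34). The ratio of olfactory receptor reads ranged from 0.941 (without grain_PHY 1) to 1.90, and that of total reads from 0.576 to 0.821. Of 798 pairs of a list and an alternative, 24 moved a median by more than its spread between PHY libraries, such as cholesterol synthesis, between -0.41 without grain_control 1 and -0.05 with the surrogate variable. No paired analysis was possible because no label says which libraries share a cow.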
